A study of Mus musculus with 6 samples.

Results

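The interferon-gamma-induced GTPases examined here were *Gbp2*, *Gbp3*, *Gbp4*, *Gbp5*, *Gbp6*, *Gbp7*, *Igtp*, *Irgm1*, *Irgm2* and *Iigp1*. They were taken by gene symbol, as a family, from a table of raw read counts, and all 10 had a row among its 48440 rows. RNA was sequenced from whole dorsal root ganglia (DRGs), the ganglia that hold the cell bodies of sensory neurons, to look for genes downstream of *NIS-lncRNA*, a long noncoding RNA. Wild-type male mice had received a microinjection into the L3/4 DRGs of 1 side, and the ipsilateral L3/4 DRGs were sequenced. In the AAV5-Gfp group (n = 3 libraries) the adeno-associated virus carried green fluorescent protein. In the AAV5-V1+V2 group (n = 3 libraries) AAV5-V1 and AAV5-V2, given mixed, carried both transcript variants of *NIS-lncRNA*. Every group therefore received surgery and virus, and the inserted sequence and the virus preparation cannot be told apart. Harvest is given as 5 weeks after microinjection in one place and profiling as 4 weeks in another. The labels do not say whether the libraries of a group came from separate mice or from pooled ganglia, nor do they give the age of the mice, so p-values measure the spread between these libraries only. Total counts were between 32025612 and 34764282 per library, and the 10 genes together took between 0.00893% and 0.0786% of them.

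Guanylate-binding proteins (GBPs) and immunity-related GTPases (IRGs) are GTP-hydrolyzing proteins that assemble on the membrane of vacuoles that enclose microbes. Interferon-gamma binds its receptor, and the signal passes through JAK kinases to promoters that hold GAS elements. It also induces IRF1, which binds ISRE elements, and GBP and IRG genes are textbook targets of this pathway. *Iigp1* is an effector IRG that loads onto the vacuole, whereas *Irgm1*, *Irgm2* and *Igtp* are regulatory IRGs that sit on the cell's own membranes and keep the effectors inactive there. Type I interferons signal through another receptor, and they share a part of these targets.

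Promoter sequences are shown because they hold the letters through which this pathway is known to act on these genes. RefSeq start sites (GRCm38.p6) were in hand for 7 of the 10 genes, with 8 windows from 250 bases before to 50 after a start, and *Gbp4*, *Gbp6* and *Iigp1* had none. The letters GAAANNGAAA (ISRE-like) and TTCNNNGAA (GAS-like) were searched on both strands. ISRE-like letters were in 7 of 8 windows and in all 7 genes, and in 1131 of 32851 promoter windows of the mouse genome (3.44%). GAS-like letters were in 4 windows, those of *Gbp5*, *Gbp7*, *Igtp* and *Irgm2*, and in 2726 of all windows (8.3%). Below, each stretch runs 5′ to 3′ on the strand of the gene with up to 7 bases of flank, and capitals mark the matches.
Gbp5: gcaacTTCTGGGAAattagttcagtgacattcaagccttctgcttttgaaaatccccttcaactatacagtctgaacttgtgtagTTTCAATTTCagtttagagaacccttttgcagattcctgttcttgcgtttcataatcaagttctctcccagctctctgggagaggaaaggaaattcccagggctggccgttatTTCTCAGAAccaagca
Gbp7: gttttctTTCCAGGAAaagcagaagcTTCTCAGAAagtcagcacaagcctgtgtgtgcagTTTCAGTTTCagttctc
Gbp3: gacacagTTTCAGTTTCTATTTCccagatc
Gbp2: cttttagTTTCACTTTCactgtct
Igtp: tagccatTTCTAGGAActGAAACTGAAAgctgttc
Irgm2: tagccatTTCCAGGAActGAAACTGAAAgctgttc
Irgm1: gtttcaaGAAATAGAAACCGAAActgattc

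The *Gbp5* stretch (chr3:142496684-142496897, plus strand) has GAS-like letters that begin 245 and 52 bases before the start site and ISRE-like letters at 165. In *Gbp7* (chr3:142530223-142530299, plus strand) GAS-like letters begin 106 and 87 bases before the start and ISRE-like letters at 53. *Gbp3* (chr3:142559992-142560021, plus strand) has a pair of ISRE-like matches that overlap each other, beginning at 45 and 39. A single ISRE-like match stands 59 bases before the start of *Gbp2* (chr3:142620597-142620620, plus strand). *Igtp* (chr11:58199504-58199538) and *Irgm2* (chr11:58214895-58214929), both on the plus strand, have stretches that are identical at 34 of 35 bases, with GAS-like letters followed by ISRE-like letters. These begin at 45 and 34 in *Igtp* and at 75 and 64 in *Irgm2*. *Irgm1* (chr11:48871428-48871457, minus strand) has overlapping ISRE-like matches at 30 and 24. These distances are from the RefSeq start sites, and in GENCODE M21 all 30 bases of the *Irgm1* stretch and 19 of the 24 bases of the *Gbp2* stretch lie in an annotated exon. A match to such short letters is a description of the sequence and does not show that a factor was bound in these ganglia.

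All 10 GTPases had a higher mean in the AAV5-V1+V2 group, and 8 of 10 rose at an adjusted p under 0.05 (edgeR's quasi-likelihood test, Benjamini-Hochberg over 18593 genes tested), where 10.1% of the genes tested were called higher. The 2 that were not called were *Gbp4* and *Igtp*. None was called lower by edgeR, DESeq2 or limma-voom, none was lower at an unadjusted p under 0.05 in any of these, and 5.27% of the genes tested were called lower by edgeR. The median log2 fold change of the 10 genes was 1.67, and that of all genes tested was -0.0003. The lowest AAV5-V1+V2 library exceeded the highest AAV5-Gfp library in 9 of the 10, which was so for 23.4% of the genes tested, and the exception was *Igtp*. Among all genes tested, the ranks of the 10 by log2 fold change ran from 271 (*Gbp6*) to 997 (*Gbp7*).

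**Figure D1:**
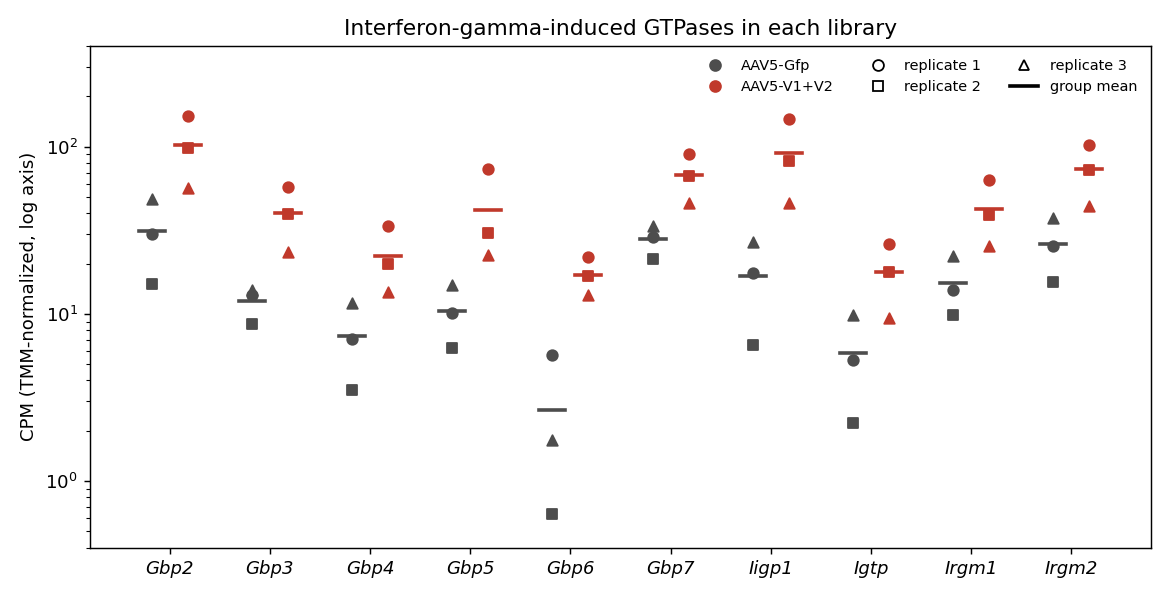
Normalized level (CPM by TMM, counts per 1000000 counts, log axis) of each of the 10 GTPases in the 3 AAV5-Gfp (grey) and 3 AAV5-V1+V2 (red) libraries, with symbols for the replicates and bars for the group means. The groups are apart in 9 genes and overlap in Igtp, and AAV5-Gfp replicate 2 is the lowest library in each gene.

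Among the GBPs of the chromosome 3 cluster, *Gbp2* is a broadly induced GBP that reaches membranes through a lipid anchor. Its counts, given here and below in the order of replicates 1, 2 and 3, were 965, 525 and 1515 in the AAV5-Gfp libraries against 5034, 3288 and 1941 in the AAV5-V1+V2 libraries. In CPM (TMM-normalized counts per 1000000 counts) this was 31.2 ± 16.7 (SD, n = 3) with AAV5-Gfp and 102.8 ± 48.3 (SD, n = 3) with AAV5-V1+V2. The groups did not overlap, but the lowest AAV5-V1+V2 library was only 1.17-fold above the highest AAV5-Gfp library. The log2 fold change was 1.72 (SE 0.47, 3.30-fold, adjusted p = 0.0490), just under the threshold.

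*Gbp5*, another lipid-anchored GBP, which promotes inflammasome assembly in macrophages, had 325, 216 and 463 counts with AAV5-Gfp against 2415, 1008 and 768 with AAV5-V1+V2. AAV5-V1+V2 replicate 1 stood well above the other libraries of its group, and no AAV5-V1+V2 library reached down to the controls. Its CPM went from 10.4 ± 4.31 to 42.0 ± 27.5 (SD, n = 3 each), a log2 fold change of 2.02 (SE 0.49, adjusted p = 0.0368). *Gbp3* had 420, 300 and 435 counts with AAV5-Gfp against 1877, 1315 and 799 with AAV5-V1+V2. The control libraries of *Gbp3* lay close together, and its log2 fold change was 1.75 (SE 0.33, adjusted p = 0.0201).

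*Gbp7* had the narrowest spread of the 10 in the AAV5-Gfp group and the smallest log2 fold change. Its counts were 929, 739 and 1052 with AAV5-Gfp against 2958, 2233 and 1576 with AAV5-V1+V2. Every AAV5-V1+V2 library was at least 1.36-fold above every control in CPM. The log2 fold change was 1.28 (SE 0.26, 2.42-fold, adjusted p = 0.0239). *Gbp7* also shares 637 bases of its span with *Gm43802* on the same strand, and how reads of overlapping genes were counted is not given in the sources used here.

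On chromosome 5, *Gbp6* had 182, 22 and 55 counts with AAV5-Gfp against 716, 559 and 446 with AAV5-V1+V2. Its mean per kilobase of exon was the lowest of the 10 in both groups, although with AAV5-V1+V2 it was below *Gbp4* in only 1 of 3 libraries, and its control libraries differed 8.88-fold from lowest to highest in CPM. The AAV5-V1+V2 libraries were close to each other and all lay above the controls. With 2.68 ± 2.62 against 17.2 ± 4.39 CPM (SD, n = 3 each), *Gbp6* had the largest log2 fold change of the 10, at 2.69 (SE 0.63, 6.43-fold, adjusted p = 0.0343). *Gbp6* is close in sequence to *Gbp10*, and the share of *Gbp6* in the counts of the pair was 42.3%, 22.7% and 14.5% with AAV5-Gfp against 31.7%, 36.9% and 54.6% with AAV5-V1+V2. The share varied widely within both groups, and how reads were assigned between the pair was not tested. With *Gbp6*, *Gbp8*, *Gbp9* and *Gbp10* summed, the log2 fold change was 2.10 (adjusted p = 0.0228). *Gbp8* and *Gbp9* each had more counts than *Gbp6* in every library, so this sum does not describe the pair alone. The span of *Gbp6* also holds *Gm43302* over 22994 bases on the same strand.

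*Gbp4*, the other GTPase examined here on chromosome 5, had 227, 122 and 362 counts with AAV5-Gfp against 1105, 661 and 461 with AAV5-V1+V2. The libraries did not overlap, and the lowest AAV5-V1+V2 library was 1.16-fold above the highest control. The log2 fold change was 1.60 (SE 0.46, 3.03-fold), which did not pass the test (adjusted p = 0.0573). Its annotated span is shared with *Gbp8* over 23774 bases and with *Gbp9* over 23773 bases, on the same strand.

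Among the IRGs, the effector *Iigp1* had 568, 225 and 835 counts with AAV5-Gfp against 4786, 2715 and 1576 with AAV5-V1+V2. Each AAV5-V1+V2 library was at least 1.72-fold above each control in CPM. The mean went from 16.9 ± 10.1 to 91.0 ± 50.4 CPM (SD, n = 3 each), a log2 fold change of 2.43 (SE 0.56, 5.38-fold, adjusted p = 0.0328).

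The regulatory IRGs differed less. *Irgm2* had 823, 538 and 1167 counts with AAV5-Gfp against 3366, 2415 and 1524 with AAV5-V1+V2, and *Irgm1* had 448, 339 and 691 against 2070, 1297 and 875. In both genes the groups were apart by a narrow gap between AAV5-Gfp replicate 3 and AAV5-V1+V2 replicate 3. The log2 fold change was 1.48 (SE 0.38, adjusted p = 0.0406) for *Irgm2* and 1.48 (SE 0.39, adjusted p = 0.0438) for *Irgm1*. *Igtp* had 172, 77 and 307 counts with AAV5-Gfp against 860, 596 and 325 with AAV5-V1+V2. Here AAV5-V1+V2 replicate 3 (9.47 CPM) was below AAV5-Gfp replicate 3 (9.84 CPM), and the log2 fold change of 1.63 (SE 0.54) did not pass the test (adjusted p = 0.0807). The annotated spans of *Igtp* and *Irgm2* overlap by 7974 bases on the same strand. In an exact permutation test of log2 CPM (two-sided, 3 against 3 libraries) p was 0.2 for *Igtp* and 0.1 for each of the other 9, where 0.1 is the smallest p that this design allows.

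The order of the libraries within a group was nearly the same in every GTPase. AAV5-Gfp replicate 2 was the lowest control in 10 of 10, and AAV5-Gfp replicate 3 the highest in 9 of 10, with replicate 1 highest for *Gbp6*. AAV5-V1+V2 replicate 1 was the highest of its group in 10 of 10 and AAV5-V1+V2 replicate 3 the lowest in 10 of 10. The summed CPM of the 10 genes was 156.7, 89.5 and 220.5 with AAV5-Gfp against 765.5, 483.3 and 299.99 with AAV5-V1+V2, so the groups did not overlap but spanned wide ranges. The median coefficient of variation of the 10 was 47.8% with AAV5-Gfp against 45.4% with AAV5-V1+V2, whereas over the 16066 genes tested with a mean of at least 1 CPM it was 6.91% and 10.3%. Within a group these 10 genes thus went up and down together from library to library, and they are not 10 independent observations.

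The number of GTPases called depended strongly on which libraries entered the fit. The calls over the whole table changed as well, and the part of the spread of the GTPases in this was not tested. Without AAV5-Gfp replicate 2, 0 of 10 were called higher by edgeR, where 0.0634% of all genes tested were called higher. Without AAV5-Gfp replicate 3, 0 of 10 were called, with 0.0792% of all genes. Without AAV5-Gfp replicate 1, 1 was called (1.35% of all genes), and without AAV5-V1+V2 replicate 2, 1 (5.4%). The fit without AAV5-V1+V2 replicate 1 called 5 (9.85%), and the fit without AAV5-V1+V2 replicate 3 called 10 (13.1%). In the 4 fits that called at most 1 GTPase, between 12 and 1020 genes of the whole table were called higher, against 1872 with all libraries. At an unadjusted p under 0.05, 10 of 10 were higher without AAV5-Gfp replicate 2 and 10 of 10 without AAV5-Gfp replicate 3. The median log2 fold change of the 10 was between 1.29 and 2.13 over these 6 fits. With both AAV5-Gfp replicate 2 and AAV5-V1+V2 replicate 1 left out, a fit chosen after the values were seen, the median was 0.94 and 3 of 10 were called.

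Per kilobase of exon (GENCODE M21), *Gbp2* was the most abundant of the 10 in both groups, with 12.4 ± 6.65 CPM per kilobase with AAV5-Gfp against 40.9 ± 19.2 with AAV5-V1+V2 (SD, n = 3 each). *Irgm2* came next, at 7.08 and 19.8, and *Gbp4* and *Gbp6* stood at the low end, at 0.985 and 0.450 with AAV5-Gfp against 2.97 and 2.89 with AAV5-V1+V2. Neighbours in this order overlapped in their ranges throughout, in both groups. *Iigp1* was the fifth with AAV5-Gfp, at 2.91 CPM per kilobase, and the third with AAV5-V1+V2, at 15.6.

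Shares of the reads within each family are not changed by a common scaling of all its genes, but they can move with its level. Of the reads on the 4 IRGs, *Iigp1* took 28.2%, 19.1% and 27.8% with AAV5-Gfp against 43.2%, 38.7% and 36.7% with AAV5-V1+V2. The effector was thus a larger part of the IRG reads in every AAV5-V1+V2 library, 39.5% ± 3.35 against 25.1% ± 5.17 (SD, n = 3 each). *Irgm2* took 41.8% ± 3.45 with AAV5-Gfp against 33.4% ± 2.67 with AAV5-V1+V2, and *Irgm1* 24.7% ± 3.54 and 19.2% ± 1.03, with no overlap in either gene. *Igtp* kept overlapping shares, 8.44% ± 1.85 and 7.93% ± 0.488. Of the reads on the 6 GBPs, *Gbp7* took 31.996% ± 5.81 with AAV5-Gfp against 24.0% ± 2.73 with AAV5-V1+V2, again without overlap, and *Gbp2* took 32.7% ± 5.93 and 34.8% ± 2.09, with overlap. Of the 10 shares compared, 4 did not overlap, and each of these had p = 0.1 in the exact permutation test (two-sided) and 0.25 after Benjamini-Hochberg adjustment, where 0.1 is again the smallest unadjusted p possible, so no share passed a threshold of 0.05. Shares of a family sum to a fixed total, so the rise of *Iigp1* and the falls of *Irgm1* and *Irgm2* are not separate results.

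**Figure D2:**
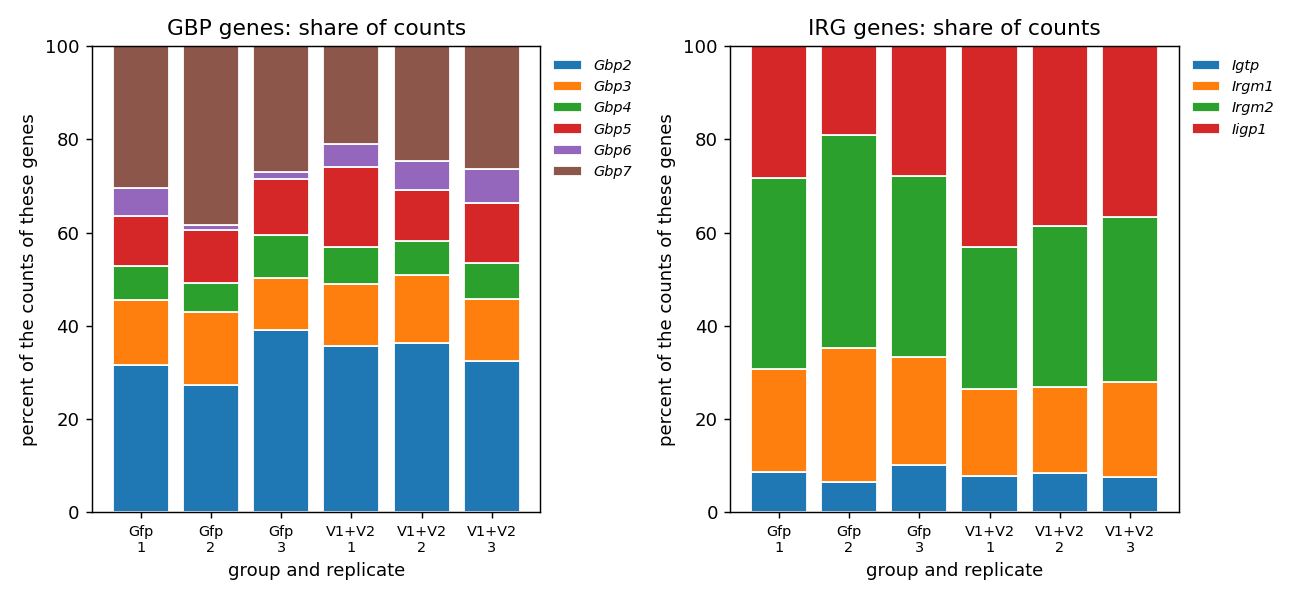
Percent of the counts of the 6 GBPs (left) and of the 4 IRGs (right) that each gene took in each library, stacked to 100. Iigp1 (red, right) takes 36.7% to 43.2% in the AAV5-V1+V2 libraries and 19.1% to 28.2% in the AAV5-Gfp libraries.

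Of 20 other GBP and IRG symbols listed, 19 had a row and 18 were tested. Higher in the AAV5-V1+V2 group were 15 of the 18, and none was called lower by edgeR, DESeq2 or limma-voom or was lower at an unadjusted p under 0.05, with a median log2 fold change of 2.31. *Tgtp2*, a close relative of *Iigp1* that works as an effector, had 77, 25 and 102 counts with AAV5-Gfp against 713, 585 and 246 with AAV5-V1+V2, and its log2 fold change was 2.87 (SE 0.57, adjusted p = 0.0231). Its near copy *Tgtp1* gave 2.80 (SE 0.45, adjusted p = 0.0156), and reads of the pair may have been split between them. *Gbp2b*, another GBP of the chromosome 3 cluster, had 91, 23 and 172 counts against 1222, 505 and 345, a log2 fold change of 2.80 (SE 0.72, adjusted p = 0.0429). Not called were *Gbp10* (log2 fold change 2.10, adjusted p = 0.0656), *Gbp11* (1.08, adjusted p = 0.137), which is annotated as a polymorphic pseudogene, and *9930111J21Rik2* (1.67, adjusted p = 0.214). *Irgc1*, an IRG of the testis, had at most 10 counts in any library and was not tested in the main fit. In these 18 genes AAV5-Gfp replicate 2 was the lowest control in 15 and AAV5-V1+V2 replicate 1 the highest library of its group in 18. Without AAV5-Gfp replicate 2 or 3, 0 of the 18 were called by edgeR (16 and 17 had an unadjusted p under 0.05), and the medians were 1.97 and 2.63. The same 2 fits called 0 genes on each pathway and marker list described below, except 1 of the B and plasma cell markers in each.

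**Figure D3:**
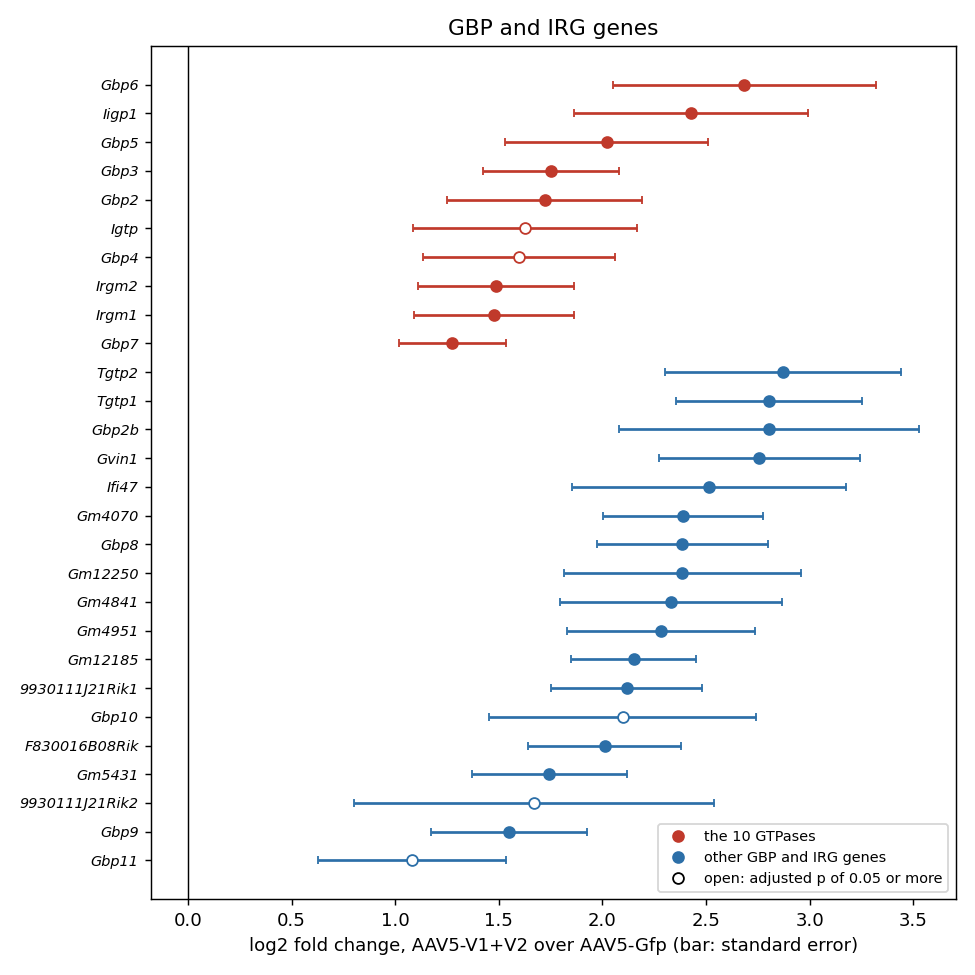
Log2 fold change of AAV5-V1+V2 over AAV5-Gfp for the 10 GTPases (red) and 18 other GBP and IRG genes (blue), with standard errors as bars and open symbols for an adjusted p of 0.05 or more (edgeR). All values lie above 0, and the widest bar belongs to 9930111J21Rik2.

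Upstream of these genes, *Ifng*, which encodes interferon-gamma, had 0, 0 and 3 counts with AAV5-Gfp against 25, 9 and 15 with AAV5-V1+V2. It did not pass the filter on low counts and was not tested in the main fit. The ratio of its summed counts, scaled to the total counts of the groups, was 16.6 (95% exact interval 5.36 to 83.2, counting error only). Its log2 fold change was 3.83 in edgeR with no filter (adjusted p = 0.0180) and 3.98 by DESeq2 (adjusted p = 0.00607). In edgeR with 1 control left out *Ifng* was not called (adjusted p = 0.0923, 0.110 and 0.0897 without AAV5-Gfp replicate 1, 2 and 3). Without AAV5-V1+V2 replicate 2 it was called (edgeR adjusted p = 0.0491). Of the type I ligands only *Ifnb1*, *Ifna4*, *Ifnk* and *Ifne* were looked at. These had 0 counts in every library, which allows up to 3 counts in each. Of the receptor and kinase genes, *Ifngr1* rose by 0.84 on the log2 scale (SE 0.17, adjusted p = 0.0232) and *Ifngr2* by 0.38 (SE 0.10, adjusted p = 0.0414). *Jak2* had 0.73 (adjusted p = 0.0573) and *Jak1* -0.07 (adjusted p = 0.587), and neither was called.

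The 5 transcription factors of the pathway described here all rose, with a median log2 fold change of 2.32. *Irf1* rose by 1.39 (SE 0.33, adjusted p = 0.0357). *Ciita* and *Nlrc5*, the activators of the MHC class II and class I genes, rose by 2.72 (SE 0.40, adjusted p = 0.0144) and 2.32 (SE 0.44, adjusted p = 0.0213), and *Irf8* rose by 2.56 and *Batf2* by 1.10. None of the 5 was called without AAV5-Gfp replicate 1, 2 or 3, each left out alone (edgeR; 5 of 5 had an unadjusted p under 0.05 in each of these fits), and the median of the 5 was between 1.83 and 2.57 over the fits that left out 1 library. Among 10 genes that drive the production of interferon-gamma, 6 were higher, with a median of 2.57. They included *Il12b* (3.004, adjusted p = 0.0251), *Stat4* (2.75, adjusted p = 0.0157) and *Tbx21* (3.07, adjusted p = 0.0234), which specify interferon-gamma-producing lymphocytes or signal to them. Of 6 brakes on the pathway, 2 were higher, *Ptpn6* (2.35) and *Usp18* (1.20), and *Socs1* missed the threshold (1.86, adjusted p = 0.0517), whereas DESeq2 called 5 of the 6.

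Other targets of interferon-gamma were higher in 7 of 8 tested, with a median log2 fold change of 2.36. *Cxcl9*, a chemokine that draws T cells, had 83, 26 and 125 counts with AAV5-Gfp against 2919, 734 and 526 with AAV5-V1+V2. *Nos2*, the inducible nitric oxide synthase of macrophages, had 9, 15 and 9 counts against 1021, 176 and 111. *Acod1*, which makes itaconate in macrophages, had 4, 1 and 1 against 608, 192 and 88. In these 3 genes AAV5-V1+V2 replicate 1 was far above the rest of its group, by more than in the GTPases. By limma-voom, 3 of the 8 were called. *Cxcl10* was not called (1.74, adjusted p = 0.114), and *Cxcl11* and *Ido1* were not tested in the main fit. Genes for proteins with which the GTPases are known to work, or that resemble them, were given by list as well. None of 10 genes for conjugation of the ATG8 proteins, which guide IRGs and GBPs to vacuoles, was called by edgeR or limma-voom in either direction (median -0.04), with 1 higher and 1 lower at an unadjusted p under 0.05, and DESeq2 called 1 higher and 1 lower. None of 3 atlastins, relatives of the GBPs that fuse the endoplasmic reticulum, was called by edgeR, DESeq2 or limma-voom (median -0.09), with 1 lower at an unadjusted p under 0.05. In alternative fits, edgeR called 1 atlastin lower with the replicate block and without AAV5-V1+V2 replicate 1. It called 1 ATG8 gene higher with total counts only, with the replicate block and without AAV5-V1+V2 replicate 3. Of 7 inflammasome genes, 6 were higher (median 1.17), among them *Aim2* (2.13), *Gsdmd* (1.67) and *Casp4* (1.17), and *Nlrp3* was not called (0.26, adjusted p = 0.256).

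Type I interferon-stimulated genes were set beside the GTPases because both groups of genes answer to interferons. Of 12 tested, 3 were higher, *Mx1* (1.66), *Oas1a* (1.66) and *Oas2* (1.28), and the median was 0.57. DESeq2 called 6 of the 12 and limma-voom 1. Their summed level was 87.1, 79.9 and 85.5 CPM with AAV5-Gfp against 117.1, 97.2 and 94.3 with AAV5-V1+V2. The range of this sum is much narrower than that of the GTPases, but the sum is weighted by abundance. Its most abundant genes were *Ifit2*, *Cmpk2* and *Ifit3*, which hardly changed. With AAV5-Gfp, *Ifit2* averaged 20.2 CPM, whereas *Mx1*, *Oas1a* and *Oas2* averaged 1.81, 1.55 and 1.38. The sum therefore says little about the genes that rose. The 9 not called by edgeR ranged from *Cmpk2* (-0.07), *Ifit3* (0.00) and *Ifit2* (0.08) to genes near the threshold. The latter were *Oas3* (1.66, edgeR adjusted p = 0.0557), *Isg15* (0.80, adjusted p = 0.0597) and *Ifi44* (0.93, adjusted p = 0.0642). Of 6 genes for the type I receptor and its factors, 2 were higher, *Irf7* (1.24) and *Irf9* (0.64), and the median was 0.49. The difference between the GTPases and these lists was not tested.

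**Figure D4:**
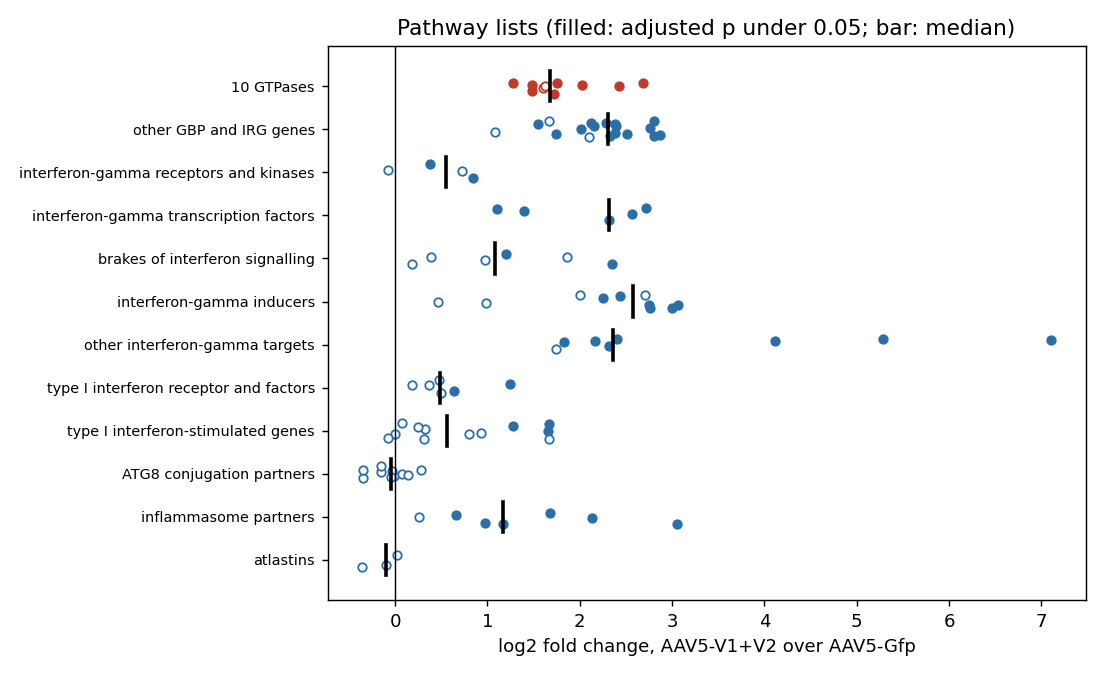
Log2 fold change of AAV5-V1+V2 over AAV5-Gfp for every gene tested on 12 lists, with filled symbols for an adjusted p under 0.05 (edgeR) and a bar at the median of each list. The median is 1.67 for the 10 GTPases, 0.57 for the type I interferon-stimulated genes and -0.04 for the ATG8 genes.

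The genes with the most similar pattern were sought among 14554 others that averaged 1 log2 CPM or more, as the root mean square difference in log2 CPM from the median profile of the 10 GTPases over the 6 libraries, centred on the AAV5-Gfp mean. The 5 nearest reported here were *Cd274* (0.21), *F830016B08Rik* (0.25), *Sla* (0.25), *Mx1* (0.25) and *Ifi204* (0.26). *Cd274*, which encodes PD-L1, had 7.47, 6.20 and 12.8 CPM with AAV5-Gfp against 51.5, 24.8 and 17.6 with AAV5-V1+V2, with its highest control in replicate 3 and its lowest in replicate 2. This likeness rests on 6 libraries.

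Immune cell markers were higher in the same libraries. Of 10 macrophage markers, 9 were called higher (median log2 fold change 1.68), and their summed level was 182, 173 and 128 CPM with AAV5-Gfp against 536, 397 and 288 with AAV5-V1+V2. Of 12 T and NK cell markers tested, 11 were higher (median 2.92), with sums of 12.0, 4.42 and 4.71 CPM against 90.4, 49.4 and 41.4. *Gzmb*, not tested in the main fit, had 0, 0 and 2 counts against 13, 8 and 5. Of 6 B and plasma cell markers, 6 were higher (median 4.40), with sums between 4.88 and 11.2 CPM against sums between 213 and 293. In the AAV5-V1+V2 group the order of the libraries was the same in these lists as in the GTPases, with replicate 1 the highest and replicate 3 the lowest. In the controls it was not. The GTPases were highest in AAV5-Gfp replicate 3, where the macrophage sum was lowest, and the T and NK and B cell sums were highest in AAV5-Gfp replicate 1. The part of these cells in the rise of the GTPases was not tested, and in whole ganglia more cells of a type cannot be told apart from more RNA per cell.

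**Figure D5:**
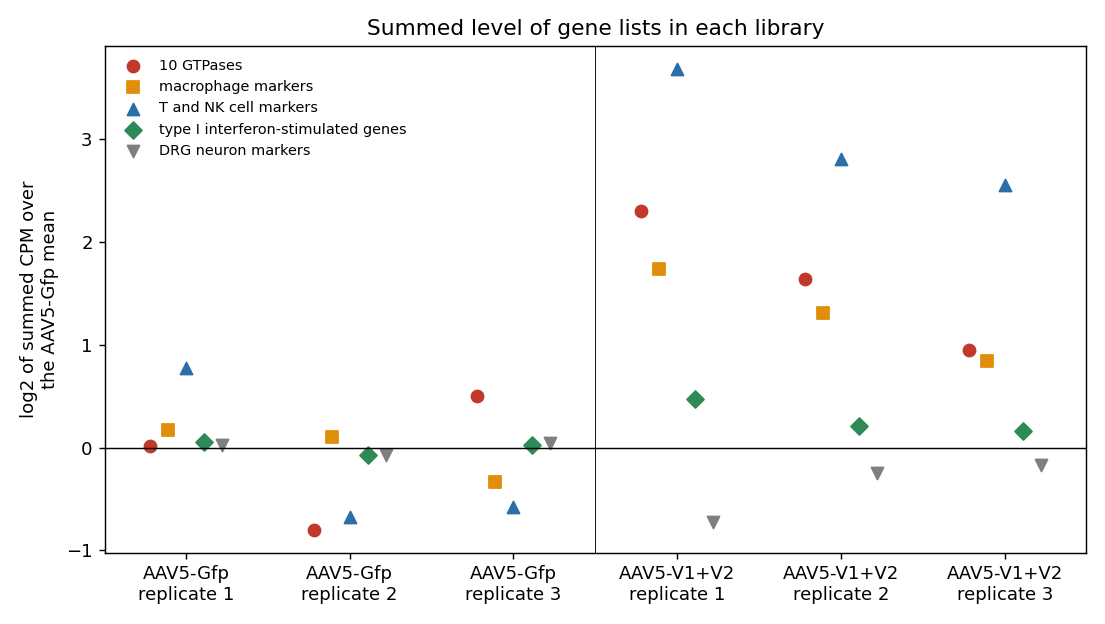
Summed CPM of 5 gene lists in each library, as log2 of the ratio to the AAV5-Gfp mean of the list. The GTPases (circles) range from -0.80 to 0.50 in the controls and from 0.95 to 2.30 with AAV5-V1+V2, and in AAV5-Gfp replicate 3 they lie above 0 while the macrophage markers lie at -0.33.

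Neuronal markers summed to 9510 to 10284 CPM with AAV5-Gfp against 6055 to 8898 with AAV5-V1+V2, so the tissue carried the markers of its label in all libraries. All 10 had a log2 fold change below 0 (median -0.37), and 1 was called, *Rbfox3*, which fell by 0.93 on the log2 scale (SE 0.19, adjusted p = 0.0256). DESeq2 called 4 of the 10 lower and limma-voom 1, and in edgeR 4 were lower at an unadjusted p under 0.05. With no filter, with the replicate block, or with AAV5-V1+V2 replicate 1 or 3 left out alone, edgeR called 4 lower. The library with the lowest neuronal sum, AAV5-V1+V2 replicate 1, was the library with the highest GTPase sum. Of 8 markers of satellite glia and Schwann cells, 0 were called by edgeR, DESeq2 or limma-voom (median -0.02), with 1 lower at an unadjusted p under 0.05. With the replicate block edgeR called 1 of these 8 lower. Of 7 endothelial markers 1 was called higher, *Pecam1* (0.88, adjusted p = 0.0269), and the median was 0.02. *Emcn* (-0.35, edgeR unadjusted p = 0.0190) and *Tek* (-0.22, edgeR unadjusted p = 0.0270) went down without being called. In the edgeR fit with the replicate block, 1 endothelial marker was called lower.

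In the genome (GRCm38, GENCODE M21), the 10 protein-coding genes lie on 4 chromosomes. *Gbp5* (142493978 to 142522344), *Gbp7* (142530342 to 142550149), *Gbp3* (142560026 to 142573209) and *Gbp2* (142620602 to 142638008) lie in this order on the plus strand of chromosome 3, with *Gbp2b* between *Gbp3* and *Gbp2*. *Gbp4* (105115767 to 105139586) and *Gbp6* (105270702 to 105293698) lie on the minus strand of chromosome 5. *Irgm1* (48861968 to 48871683, minus strand) and the neighbours *Igtp* (58199556 to 58207591) and *Irgm2* (58199618 to 58222782, both plus strand) are on chromosome 11, and *Iigp1* (60376027 to 60392634, plus strand) is on chromosome 18. The log2 fold changes of the cluster on chromosome 3 ran from 1.28 to 2.02, those on chromosome 5 were 1.60 and 2.69, and those on chromosome 11 ran from 1.48 to 1.63.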

How the data were processed

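RNA was extracted and stranded total RNA libraries were made, per the labels. Per gene, the authors deposited whole-number read counts that were not normalized. GRCm38 (mm10) is named in the submitters' processing notes. The aligner, the counting program, its annotation and its use of strand are not given in the sources used here. All 6 libraries were used, and *Gm34583* was not analysed here. Genes were filtered by filterByExpr, normalized by TMM and tested with edgeR 4.0.16 (glmQLFit, glmQLFTest, 2 groups, no covariate) in R 4.3.3, and an adjusted p (Benjamini-Hochberg) under 0.05 was called. SE is the absolute log2 fold change over the square root of F. Log2 CPM used a prior count of 2. The calculations were tested on simulated data. DESeq2 1.42.0, limma-voom (limma 3.58.1), 3 other normalizations, no filter, a replicate block, a 2-fold threshold and leaving out libraries were alternatives. A further alternative summed *Gbp6*, *Gbp8*, *Gbp9* and *Gbp10*. The text names the 10 genes, the other genes of the GBP, IRG, ligand, pathway, target and partner lists, up to 3 markers of each cell type by smallest p, defining markers near 0, and the 6 genes nearest in pattern. Of these, 1 gene is not reported here. The genes, lists and tests were chosen with earlier results of these data known. No pair of libraries in a group agreed within sampling noise.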

Additional observations from a re-analysis of the deposited data

How the results depend on the processing

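With 3 libraries per group, leaving out 1 library moved the number of GTPases called higher between 0 and 10. Over the same fits the number of all genes called higher was between 12 and 2474, and the number called lower between 0 and 1446. With limma-voom 5 GTPases were called higher, and 1421 genes in all, against 8 and 1872 in the main fit. DESeq2 called 9 GTPases and 2477 genes higher, no filter 9 and 2104, and total counts only 9 and 2277. RLE normalization called 7 GTPases and 1837 genes higher. With both extreme libraries left out, chosen after seeing the data, 3 were called with a median log2 fold change of 0.94, and 1007 genes were higher and 266 lower in all. A 2-fold change in addition to the adjusted p left 1052 genes higher and 47 lower, and DESeq2 called 1488 lower. No GTPase changed direction in any alternative run, and 10 of 10 stayed above 0. Of 14 alternatives, *Gbp3* was called in 11, *Iigp1* in 10, *Gbp2* in 6 and *Igtp* in 1. For *Gbp6* it was 11 of 15, which includes the call of *Gbp6*, *Gbp8*, *Gbp9* and *Gbp10* summed. That fit is not one of *Gbp6* alone. The cause of these changes was not tested.

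With the replicate number as a block, 9 GTPases were called higher, and 2118 genes were higher and 1341 lower. Whether the numbers pair the samples is not known. Deviations from the group means correlated at 0.0360, 0.0658 and 0.107 for replicates 1, 2 and 3. Replicates 2 and 3 correlated best with their own number and replicate 1 did not. With so few libraries per group these values cannot decide on a pairing.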
